A study of Mus musculus with 20 samples.

Results

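The acetylation landscape described here is that of untreated RAW264.7 cells, an established mouse macrophage line that serves as a model of the osteoclast precursor. It was taken from the 3 peak lists of histone H3 lysine 27 acetylation (H3K27ac) that the labels call untreated, numbered as replicates 1, 2 and 3. Its members are the regions held by every untreated list: a region is a stretch covered by peaks of at least 2 of these lists, and a list holds it if its peaks cover at least 1 bp. Of 13476 such stretches on the mouse GRCm38 build, 7137 were held by all 3 lists, which is 53.0%. These regions cover 9.88 Mb.

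The series mapped H3K27ac by chromatin immunoprecipitation and sequencing in crosslinked cells. It comprises 20 samples, of which 10 have a peak list, and the groups given RANKL, a BET bromodomain inhibitor or both were not used here. The samples without a list are input controls, with an input for every untreated replicate. Whether the peak caller used them is not stated in the sources used here. The untreated cells received neither agent and carry no engineered allele in the labels, which give the source name as bone marrow and the cell type as a line derived from monocytes. No label states that the 3 samples came from separate cultures, so the spread between them may be technical, and sequencing depth cannot be read from the lists, which give no read numbers.

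H3K27ac is placed by the acetyltransferases p300 and CBP on nucleosomes beside active promoters and enhancers, and it is widely used to map regulatory DNA that is in use. In macrophages the pioneer factor PU.1, encoded by Spi1, opens much of that DNA together with C/EBP and AP-1 factors, and signalling from the CSF1 receptor keeps the cells alive. The same cells become bone-resorbing osteoclasts when RANKL engages its receptor RANK, which acts through NF-kB and FOS to induce NFATc1 and, through it, genes of cell fusion, acid secretion and matrix digestion.

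At the starts of 3 macrophage and 3 ribosomal protein genes, picked for display, the regions lay over DNA of contrasting composition. The 250 bases before the start are shown for 3 macrophage genes with wide regions, the lysozyme gene Lyz2, the perforin-like Mpeg1 and the scavenger receptor gene Cd68, and for the ribosomal protein genes Rps6, Rpl18 and Rpsa. Sequences are from RefSeq, GRCm38.p6, and run 5′ to 3′ on the gene's strand, and capitals mark each CpG dinucleotide.
Lyz2, chr10:117282273-117282522, minus strand: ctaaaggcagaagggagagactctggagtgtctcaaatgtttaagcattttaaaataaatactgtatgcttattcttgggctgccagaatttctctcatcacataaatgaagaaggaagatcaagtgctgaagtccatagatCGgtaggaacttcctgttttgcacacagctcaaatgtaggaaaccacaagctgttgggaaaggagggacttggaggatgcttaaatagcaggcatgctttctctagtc
Mpeg1, chr19:12460520-12460769, plus strand: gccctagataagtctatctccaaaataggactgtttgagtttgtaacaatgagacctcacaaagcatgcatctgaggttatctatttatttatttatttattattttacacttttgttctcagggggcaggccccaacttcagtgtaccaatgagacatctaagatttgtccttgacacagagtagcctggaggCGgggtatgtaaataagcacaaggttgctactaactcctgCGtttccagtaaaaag
Cd68, chr11:69666171-69666420, minus strand: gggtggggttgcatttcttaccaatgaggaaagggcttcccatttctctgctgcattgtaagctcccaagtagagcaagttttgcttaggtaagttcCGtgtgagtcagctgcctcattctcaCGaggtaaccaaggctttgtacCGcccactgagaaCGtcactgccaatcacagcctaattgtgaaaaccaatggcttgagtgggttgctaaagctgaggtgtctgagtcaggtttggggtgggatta
Rps6, chr4:86857368-86857617, minus strand: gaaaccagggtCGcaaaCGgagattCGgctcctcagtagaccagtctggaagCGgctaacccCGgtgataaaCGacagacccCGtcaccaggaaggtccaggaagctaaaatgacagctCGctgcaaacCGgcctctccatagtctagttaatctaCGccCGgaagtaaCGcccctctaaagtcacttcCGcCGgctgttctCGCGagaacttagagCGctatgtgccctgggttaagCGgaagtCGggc
Rpl18, chr7:45717821-45718070, plus strand: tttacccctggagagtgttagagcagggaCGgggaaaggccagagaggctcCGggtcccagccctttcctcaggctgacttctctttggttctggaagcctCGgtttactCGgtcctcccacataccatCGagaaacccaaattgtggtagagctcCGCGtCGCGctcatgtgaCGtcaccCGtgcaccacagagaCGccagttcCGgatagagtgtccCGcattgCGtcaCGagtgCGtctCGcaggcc
Rpsa, chr9:120127516-120127765, plus strand: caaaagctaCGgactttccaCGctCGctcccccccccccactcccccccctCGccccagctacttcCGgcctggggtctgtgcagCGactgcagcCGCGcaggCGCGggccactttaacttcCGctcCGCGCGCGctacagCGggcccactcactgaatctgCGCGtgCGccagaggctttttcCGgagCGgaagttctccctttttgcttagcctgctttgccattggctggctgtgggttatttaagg
The Lyz2, Mpeg1 and Cd68 stretches hold 1, 2 and 4 CpG dinucleotides. Those of Rps6, Rpl18 and Rpsa hold 19, 18 and 21. All 6 starts lie inside a region held by all lists, so a start of either kind could carry the mark in these cells.

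The lists differed in length before any of them was compared. Replicates 1, 2 and 3 held 16364, 9893 and 13677 peaks that covered 16.1, 7.79 and 19.5 Mb. The median peak width was 676, 583 and 1093 bp, and the median fold enrichment, which is the authors' ratio of signal over the caller's background, was 2.62, 2.46 and 2.41. Replicate 2 was the shortest list, and 77.1% of its peaks lay in regions held by all 3, against 44.7% for replicate 1 and 49.7% for replicate 3. Of the 6339 stretches held by 2 lists only, 4526 were missing from replicate 2, and without that list the regions shared by the other lists numbered 11875. Most peaks were weak by the authors' statistic: 4.11%, 1.82% and 20.4% of peaks in replicates 1, 2 and 3 reached a -log10 q of 5, and at that threshold only 3 regions were held by every list. With each list reduced to its best peaks until all covered the same length, 1438 were.

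Most regions held by all lists were short. Their median width was 1088 bp, the interquartile range was 685 to 1701 bp, and the extremes were 141 and 15610 bp. Regions over 4 kb numbered 236, and 978 were under 500 bp. The stretches held by only 2 lists were shorter, with a median of 364 bp. Width depends on how a region is built: it was 465 bp for stretches covered by every list and 1745 bp when peaks of all lists were merged.

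Regions held by all lists sat mainly at gene ends. A gene end is here a position within 1 kb of either end of a protein-coding RefSeq gene, and 4157 regions, or 58.2%, lay at one. Another 1781 regions lay inside protein-coding genes and 1199 (16.8%) between protein-coding genes, where they may still meet noncoding genes. Of the latter regions, 123 had no protein-coding gene within 100 kb. The stretches held by only 2 lists were at a gene end in 40.7% of cases. Gene-end regions had a median width of 1018 bp, intragenic regions 1187 bp and intergenic regions 1252 bp. Over 4 equal groups of increasing width the gene-end share went from 65.8% to 61.2%, 59.1% and 46.8%, so the widest group held the most regions away from gene ends.

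Within each list, gene-end peaks and other peaks were nearly alike in strength. The median width of gene-end peaks minus that of other peaks was 111, 20 and 34 bp in replicates 1, 2 and 3, a mean of 55.0 ± 49.0 bp (SD, n = 3). The same difference in median fold enrichment was -0.0096, -0.0183 and -0.0002. All 3 lists gave a greater width and a lower fold at gene ends, but both differences had p = 0.25 by a two-sided exact sign-flip permutation test over lists, the smallest value that 3 lists allow.

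The mark lay at transcription starts far more often than at the far ends of genes. Among 8600 genes longer than 10 kb with a single listed start, 26.0% had a region held by all lists within 1 kb of the start and 1.58% within 1 kb of the far end. Replicates 1, 2 and 3 each showed this by themselves, with 38.7%, 32.1% and 46.1% of starts against 2.81%, 1.67% and 2.95% of far ends. Over 21263 listed starts, coverage by regions held by all lists was 14.9% at the start, reached its maximum of 18.1% at 200 bp downstream, and was 4.51% at 1 kb upstream and 5.47% at 1 kb downstream. From the start, a region reached a median of 546 bp upstream and 626 bp downstream, and in 55.7% of the 2765 genes with a start inside one it reached farther downstream.

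**Figure D1:**
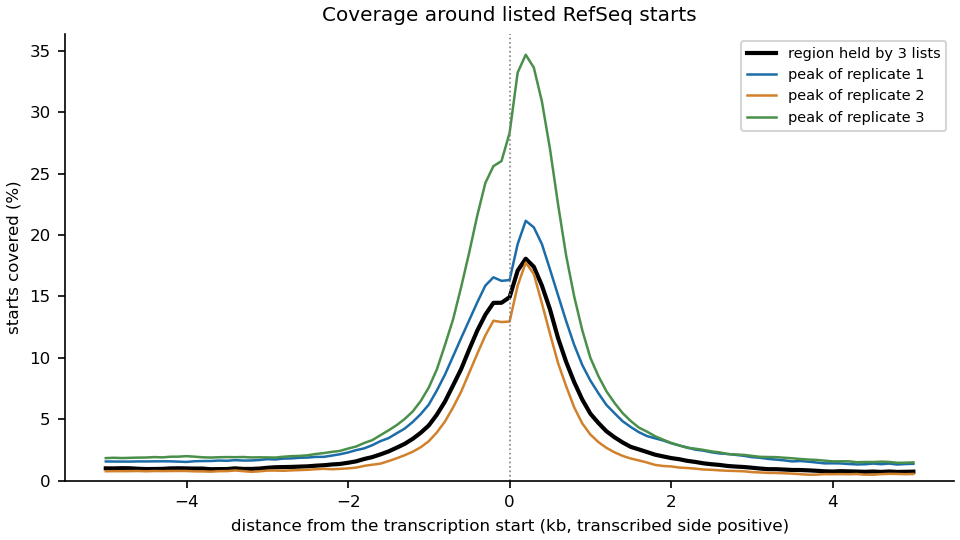
Share of 21263 RefSeq starts covered, in percent, by distance from the start in kb, for regions held by all 3 lists (black) and for the peaks of each replicate (colours). Every curve is highest just downstream of the start, where the regions held by all lists reach 18.1%, and falls to about the flanking level within 3 kb on either side.

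In all, 4897 of 21887 protein-coding genes, or 22.4%, had a region held by all lists at a gene end. At least 1 list had a peak at an end of 8916 genes, and no list had one at an end of 12971 genes (59.3%). The median gene with a region had 1054 bp in its widest one, and 132 genes, or 2.70% of those with a region, exceeded 4 kb. The gene lists below are read against these background values, by counts and medians only.

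Macrophage identity genes had the highest median width of gene-end regions among the lists examined. Of 28 genes, 20 had a region (71.4%), with a median width of 4310.5 bp, and 11 of the 20 exceeded 4 kb. Csf1r, the CSF1 receptor gene, had a region of 10724 bp at chr18:61097896-61108619, of which replicates 1, 2 and 3 covered 10724, 7340 and 10724 bp. Spi1, the PU.1 gene, had 7833 bp at chr2:91080843-91088675, of which 7075, 7282 and 7833 bp were covered. At both genes every list covered most of the region. Cd14, the lipopolysaccharide co-receptor gene, had 8154 bp with 8154, 2454 and 8154 bp covered, and Cx3cr1, a chemokine receptor gene, had 4325 bp with 4325, 646 and 4325 bp covered. At these genes replicate 2 marked only part of what the other lists did.

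Other genes of the list that exceeded 4 kb were the signalling adaptors Tyrobp (7460 bp) and Fcer1g (4682 bp), the scavenger receptors Msr1 (5948 bp) and Cd68 (4760 bp), Lyz2 (5642 bp), Mpeg1 (5251 bp) and Coro1a (4296 bp), which encodes an actin-binding protein. Regions within 25 kb of a gene, which can include those of its neighbours, summed to 26.2 kb at Cd14 and 20.9 kb at Lyz2, against a 99th percentile of 9.55 kb over all genes. Regions narrower than the list's median, though wider than the median over all genes, were found at Cebpa (1114 bp) and Cebpb (1810 bp), which encode C/EBP factors, and at Runx1 (1210 bp), which had 5 regions in its body. A gene-end region need not lie at the start. The Tyrobp region, chr7:30416362-30423821, lay mostly beyond the gene's end at 30417582. The Cebpb region, chr2:167690366-167692175, lay mostly beyond the end at 167690432. At Cebpb 1810, 354 and 1810 bp were covered in replicates 1, 2 and 3, with a fold of 1.14 in replicate 1. Itgam, the CD11b gene, had 364 bp. Fold enrichment at these genes lay near that of other genes: the median fold enrichment at the 20 genes was 2.86, 2.41 and 2.36 in replicates 1, 2 and 3, and over all genes with a region it was 2.66, 2.47 and 2.44.

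The macrophage genes without a gene-end region included Maf, which encodes a maturation factor, Fli1, the F4/80 gene Adgre1, the Fc receptor genes Fcgr1, Fcgr2b and Fcgr3, and the mannose receptor gene Mrc1. Fli1 had 5 regions inside its body, and Fcgr1 and Fcgr2b had peaks at an end in 2 lists. The median width of the list was 2139.5 bp where every list had to cover a stretch, and the median over all genes was then 499 bp. With every list reduced to one covered length, 5 of the 28 genes had a region held by all (17.9%), against 971 of 21887 protein-coding genes (4.44%).

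**Figure D2:**
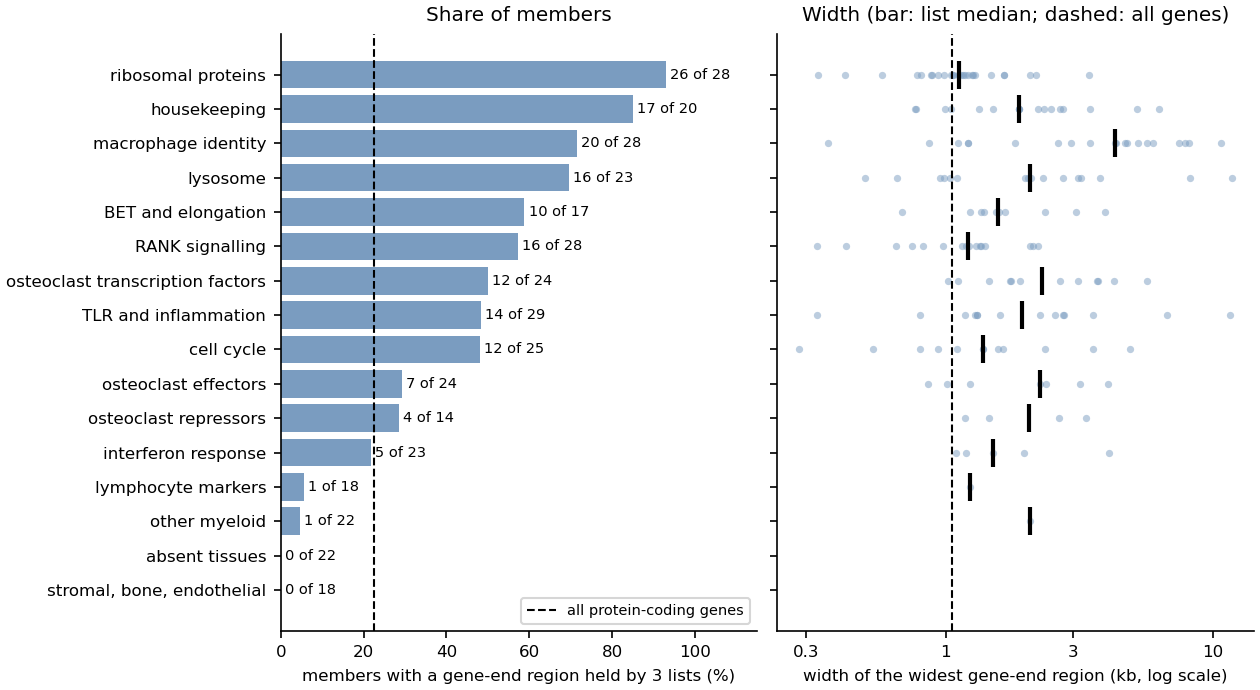
Left, share in percent of the members of each gene list with a gene-end region held by all 3 lists, with counts beside the bars and the value over all protein-coding genes (22.4%) dashed. Right, width in kb (log axis) of the widest such region of each member (points), the list median (bar) and the median over all genes with a region (1054 bp, dashed). Ribosomal protein genes have the highest share and macrophage genes the highest median width.

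Ribosomal protein and housekeeping genes carried the mark at most members, on shorter stretches than macrophage genes. Of 28 ribosomal protein genes 26 had a region, with a median of 1124.5 bp and none over 4 kb, the widest being Rpl18 with 3436 bp. Rpl37 and Rps2 had none held by all lists, although 2 lists and 1 list had a peak at an end. Among 20 housekeeping genes 17 had a region, with a median of 1882 bp, and the beta-actin gene Actb, at 5195 bp, was among those over 4 kb. The housekeeping genes without one were Hprt and Pgk1, both on the X chromosome, and Ywhaz. With every list reduced to one covered length, 4 of 28 ribosomal protein genes (14.3%) and 1 of 20 housekeeping genes had a region, so their place above macrophage genes was not seen there.

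Genes of RANK signalling had a region at 16 of 28 members (57.1%) in cells given no RANKL, with a median of 1209 bp. With every list reduced to one covered length only 1 of the 28 (3.57%) had one, close to the 4.44% of all genes. The receptor gene Tnfrsf11a, which encodes RANK, had the widest, 2216 bp at chr1:105780244-105782459, of which 1213, 1841 and 2216 bp were covered in replicates 1, 2 and 3. The adaptor Traf1, the kinases Map3k7, Chuk, Ikbkb, Mapk14, Akt1 and Syk, and the NF-kB subunits Nfkb1, Rela and Rel had a region. Traf6, the adaptor that couples RANK to NF-kB, had none in common, with a peak at an end in 2 lists, and no list had a peak at an end of Nfkb2, Src or Map2k6.

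Among transcription factors of the osteoclast programme, most AP-1 genes were marked and Nfatc1 was not marked at its ends. A region was present at 12 of 24 genes (50.0%, beside 22.4% of all genes) with a median of 2286.5 bp. With every list reduced to one covered length, 2 of the 24 (8.33%) had one, beside 4.44% of all genes. Fos had 4274 bp, covered over 2817, 4274 and 3680 bp in replicates 1, 2 and 3, and Junb (3714 bp), Jun (3668 bp), Fosl2 (3127 bp) and Jund (1750 bp) followed. Fosb had peaks at an end in 2 lists, and Fosl1 in all 3, but no region there was held by all. Mef2d had the widest, 5675 bp, and Mitf, which encodes a factor of osteoclast maturation, had 1894 bp at its end and 15.7 kb within 25 kb. Nfatc1, the master regulator, had 2 regions in its body and 5.20 kb within 25 kb, but a peak at an end in 1 list only. No list had a peak at an end of Myc or of Prdm1, the Blimp-1 gene, and neither had a region held by all lists within 25 kb.

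Genes of the resorbing osteoclast were marked close to the background rate. A region was present at 7 of 24 effector genes (29.2%, beside 22.4% of all genes). These were Ctsk, which encodes the collagen-digesting cathepsin K (2252 bp), the proton pump subunit genes Tcirg1 (4060 bp) and Atp6v1c1 (1230 bp), Snx10, Plekhm1, the tetraspanin gene Cd9 and Pstpip2. Pstpip2 was counted because it is on the list, and no role in resorption is claimed for it. No list had a peak at an end, and no region held by all lists lay within 25 kb, at Acp5 (tartrate-resistant acid phosphatase), Mmp9, the fusion gene Ocstamp, the calcitonin receptor gene Calcr, the integrin gene Itgb3, Oscar, Car2 (carbonic anhydrase), Ostm1 and Cd109. Dcstamp and Mmp14 had a peak at an end in 1 list.

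Of 14 genes on a list of osteoclast repressors, 4 (28.6%, beside 22.4% of all genes) had a region: Lilrb4a (3352 bp), an inhibitory receptor gene, Dusp1 (2655 bp), a MAP kinase phosphatase gene, Id3 (1456 bp) and Notch2 (1180 bp). The count follows the list as written, and no restraining role is claimed for Notch2. Irf8 and Bcl6, which encode repressors of the NFATc1 programme, had peaks at an end in 2 lists. Rbpj, the Notch effector, had no peak at its ends but 13.4 kb of regions within 25 kb. Without replicate 2 the count was 7 of 14, and 6415 of 21887 protein-coding genes (29.3%) then had a region.

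Toll-like receptor and inflammatory genes had a region at 14 of 29 members (48.3%, beside 22.4% of all genes), with a median of 1929.5 bp. With every list reduced to one covered length, 2 of the 29 (6.90%) had one, beside 4.44% of all genes. The mRNA decay factor gene Zfp36 (11572 bp) and the Toll-like receptor gene Tlr2 (6725 bp) were the widest. Tlr4, Tlr7, Tlr9, Myd88, Nlrp3, Tnf, Ccl3, Ccl4 and Ccl9 also had one. No list had a peak at an end of Il1a, Il1b, Il6, Il10, Il12b, Nos2, Ptgs2, Ccl2 or Ccl5.

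Lysosomal genes were marked at 16 of 23 members (69.6%, beside 22.4% of all genes) with a median of 2061 bp. The widest were at the cathepsin gene Ctsb (11789 bp) and the hexosaminidase gene Hexa (8170 bp, of which replicate 2 covered 3085 bp). Where a list had to cover 50% of a region, 8 of the 23 (34.8%) had one, beside 15.3% of all genes. At one covered length 5 of the 23 (21.7%) had one, beside 4.44% of all genes. Interferon response genes were marked at 5 of 23, or 21.7%, close to the 22.4% of all genes, with Irf5 the widest (4080 bp). No list had a peak at an end of Isg15, Ifit1, Ifit3 or Rsad2. Mx1 and Mx2 are not among the protein-coding genes used. Genes of BET proteins and transcription elongation had a region at 10 of 17 (58.8%), among them Brd2 (3930 bp) and the acetyltransferase gene Ep300 (2348 bp). Cell cycle genes had one at 12 of 25 (48.0%), the widest at Ccnd1, the cyclin D1 gene (4887 bp). At one covered length the BET and cell cycle counts were 3 of 17 (17.6%) and 4 of 25 (16.0%), beside 4.44% of all genes.

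Markers of other cell types were almost free of regions, which bears on the label of the line. None of 18 stromal, bone and endothelial markers and none of 22 markers of tissues outside the culture had a region held by all lists. Of 18 lymphocyte markers only Cd79a had one (1232 bp), which did not overlap the gene's body. Of 22 markers of other myeloid and mast cells only the chemokine receptor gene Xcr1 had one (2068 bp). The neutrophil genes S100a8, S100a9, Mpo and Ly6g and the dendritic cell gene Flt3 had a peak at an end in no list. Without replicate 2, 1 stromal, bone or endothelial marker and 1 marker of tissues outside the culture had a region held by the other lists.

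The 12 broadest regions were ranked by the shortest length that any list covered. The broadest was 15610 bp at chr19:5802770-5818379, which lay 98 bp from the noncoding RNA gene Malat1, with 15.0, 11.7 and 15.3 kb covered in replicates 1, 2 and 3. Next were regions at Cttnbp2nl (11301 bp), at Zfp36 and Med29 (11572 bp) and at Vmp1, an autophagy gene (11067 bp at chr11:86576927-86587993). Csf1r, Spi1, Ctsb, the chromatin protein gene Hmga1 (8100 bp) and the lectin receptor gene Clec4d (8003 bp) were at gene ends as well. A region of 9039 bp lay inside Plec, which encodes a cytoskeletal linker. Regions of 14679 and 12077 bp lay between protein-coding genes, 79.1 kb from Tmco5 and 3005 bp from E230025N22Rik, and the latter overlapped the noncoding RNA gene Gm41699. The shortest coverage among the 12 was 6895 bp, at Clec4d in replicate 1, and the region next in rank, at Tgif1, had 6741 bp.

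The Vmp1 region also spans the microRNA gene Mir21a. The mature RNA that it encodes is shown since the locus is among the broadest, from RefSeq, GRCm38.p6, with its seed (bases 2 to 8) in capitals.
mmu-miR-21a-5p, chr11:86584120-86584141, minus strand: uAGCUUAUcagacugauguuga
These bases lie inside the region, of which replicates 1, 2 and 3 covered 10.4, 8.74 and 11.1 kb.

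**Figure D3:**
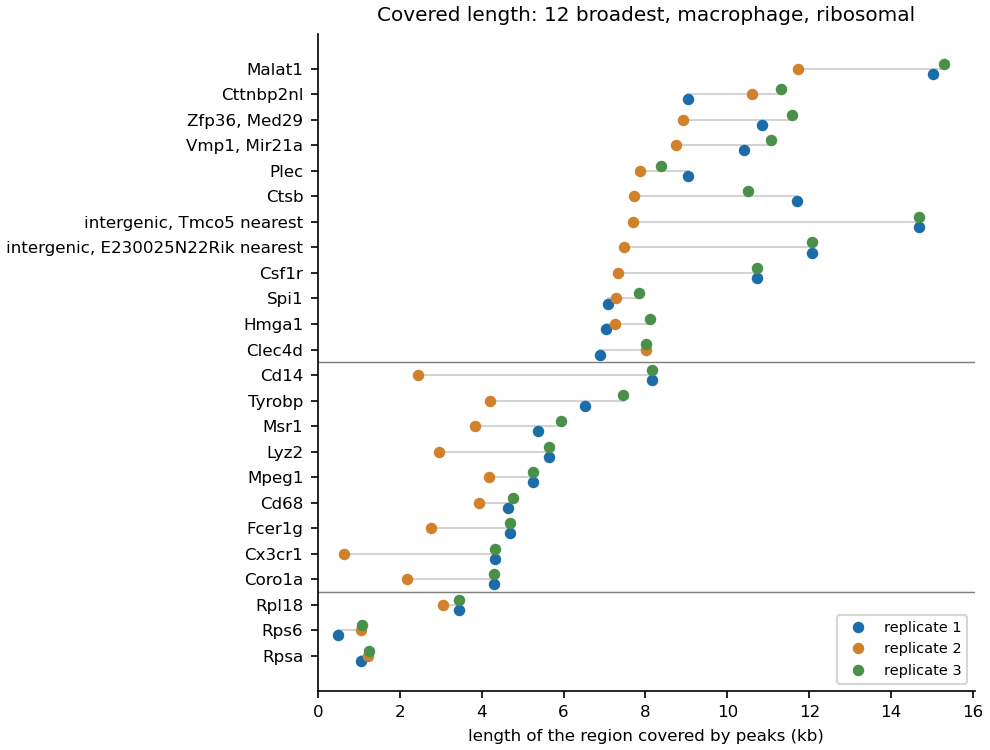
Length in kb of each region that the peaks of replicates 1, 2 and 3 covered, for the 12 broadest regions (top block), other macrophage genes (middle) and ribosomal protein genes (bottom). Replicate 2 lies lowest at most loci, at 0.646 kb against 4.325 kb at Cx3cr1, and the ribosomal protein genes other than Rpl18 lie under 1.3 kb in every list.

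The strongest regions by fold enrichment were other loci, and the lists did not rank them alike. Over the 7137 regions the rank correlation of the highest fold between lists was 0.008 for replicates 1 and 2, 0.044 for 1 and 3 and 0.021 for 2 and 3. For covered length, over 7045 regions made by merging the peaks of all lists, it was 0.54, 0.66 and 0.54. The top 5% by fold, 357 regions per list, had 2 regions in common, whereas the top 5% by covered length, 352 per list, had 156. On those same merged regions, a comparison added after the data were seen, the rank correlation of fold was 0.030, 0.042 and 0.018, and the top 352 by fold had 1 region in common. These are descriptions over regions that share library and genome and were chosen as held by every list, with no test.

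**Figure D4:**
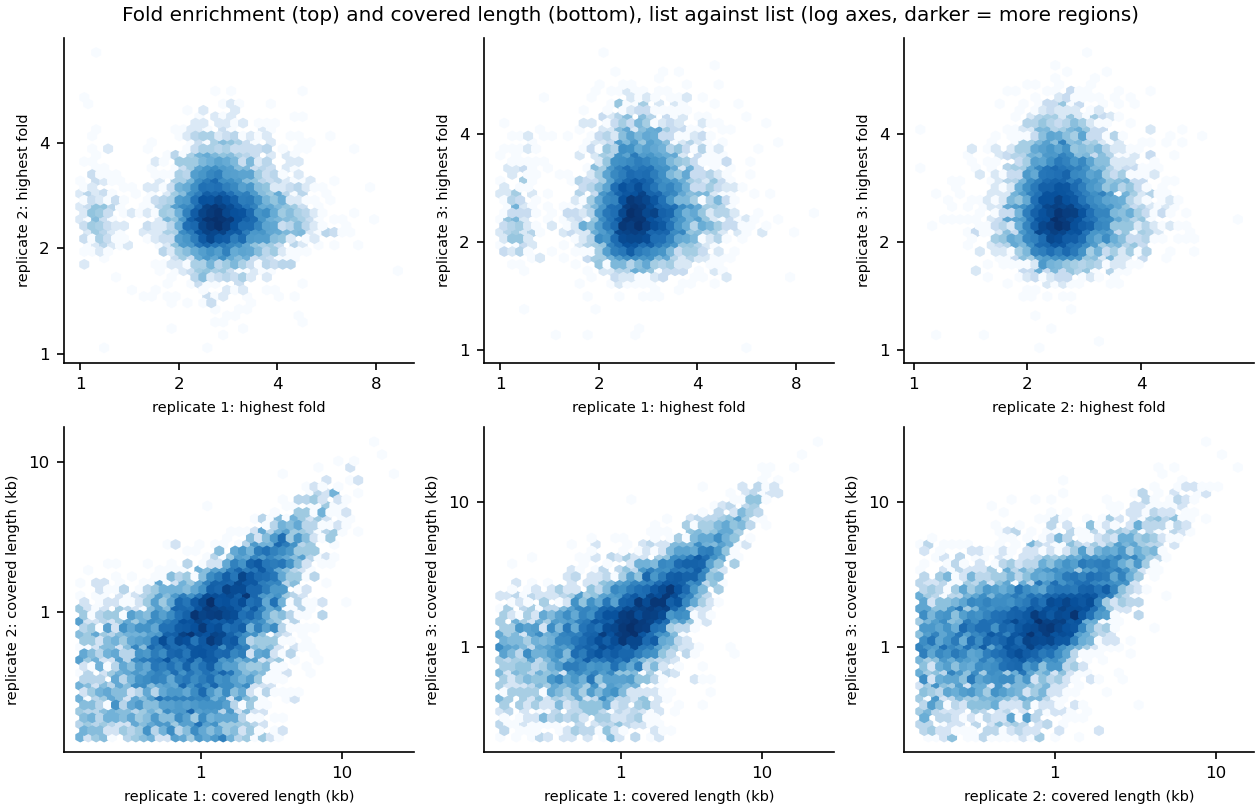
Top, highest fold enrichment of each of 7137 regions in 1 replicate against another. Bottom, covered length in kb of 7045 merged regions, both on log axes with darker cells holding more regions. Fold forms a round cloud in every pair, with a separate group near 1 in replicate 1, and covered length lies along the diagonal above about 1 kb.

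The region with the highest fold in replicate 1 lay inside Elmo1, a gene of engulfment signalling, with 9.34, 1.77 and 2.42 in replicates 1, 2 and 3. In replicate 2 it was at the splicing factor gene Prpf8, with 1.13, 7.22 and 2.34, and in replicate 3 at Nf1, with 2.06, 2.89 and 6.74. Each was extreme in 1 list only. Replicate 1 also held 515 peaks with a fold under 1.5, against 69 and 90 in replicates 2 and 3.

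Ranked by the lowest percentile of fold over the lists, the region at Szrd1 came first, with 4.64, 3.79 and 4.26, followed by one at Hrob, a homologous recombination gene, with 4.72, 3.94 and 3.78. Next were an intergenic region 7.81 kb from Rassf4 and another 15.7 kb from Ptprc, the CD45 gene, with 3.86, 4.28 and 4.06. The other named regions were at Entr1 and Pmpca, 1110059E24Rik and Abhd17b, Necap2, Pym1, Gtf3c2, Kif9 and Klhl18, and Rpl7l1, and 16.4 kb from Arf2. These 12 regions were 283 to 1537 bp wide, 9 of them at gene ends, and none is among the 12 broadest. Fold varied less among wide regions, which limits how often they can rank high. Its SD in the narrowest and widest of the 4 width groups was 0.718 and 0.521 in replicate 1. In replicate 2 it was 0.526 and 0.405, and in replicate 3 0.673 and 0.497. Fold ranks were nearly unrelated between lists, and whether these 12 regions are reproducibly strong was not tested. Their lowest percentile was 90.1 at Rpl7l1, and the next region, at Rgs19, had 89.6. Ranked by -log10 p in place of fold, 5 of the 12 remained.

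Away from gene ends, 2980 regions were left, of which 1032 formed 429 clusters once near neighbours were joined, the longest gap joined being 12.4 kb, and 1948 stood alone. The longest by summed length was the intergenic cluster nearest Tmco5, with 20.2 kb in 3 regions, of which 20.2, 11.8 and 20.2 kb were covered in replicates 1, 2 and 3. The clusters in Plec (17.7 kb in 6 regions), beside Malat1 (17.6 kb), on chromosome 10 with no protein-coding gene within 100 kb (17.4 kb), 44.9 kb from Lpp (16.6 kb) and between Ankdd1a and Plekho2 (16.0 kb) came next. A cluster in Gas7 had 13.7 kb, and one 23.9 kb from Fth1, the ferritin heavy chain gene, had 13.6 kb. In each of the 8, replicate 2 covered the least.

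Starts inside peaks were richer in CpG than starts in no peak, whether or not every list held them. The promoter table lists 21263 starts of 17492 genes, 79.9% of the protein-coding genes, so the values describe those starts and are no check over all genes. Of these, 3177 starts lay in a region held by all lists and 14582 in no peak of any list. Their windows of 300 bp, from 250 bp before to 50 bp after the start, had a median GC content of 62.0% and 53.0%, and a median ratio of observed to expected CpG of 0.832 and 0.355. Of starts with a ratio over 0.6, 26.2% lay in a region held by all lists, against 4.69% of the others. The 3504 starts in peaks of 1 or 2 lists, or in partly shared ones, had a median ratio of 0.833, and 83.0% of them exceeded 0.6, beside 83.6% of starts in held regions and 31.3% of those in no list. Among the starts in held regions the median ratio was 0.278 over 12 starts of macrophage genes and 0.96 over 10 starts of ribosomal protein genes, the contrast visible in the sequences printed above. A ratio over 0.6 was found at 16.7% of these macrophage starts, at Runx1 (1.01) and Coro1a (0.703), and at 100% of the ribosomal ones. The median was also low at held starts of inflammatory (0.384) and lysosomal (0.478) genes.

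Motif letters were searched on both strands of these windows. The PU.1 motif GAGGAAGT was present in 3.13% of all windows, in 47 of the 522 windows that lay in held regions and had a CpG ratio of at most 0.6, which is 9.0%, and in 349 (3.48%) of the 10017 such windows in no list. The CRE motif TGACGTCA, bound by CREB and ATF factors, was present in 2.23% of all windows, in 5.05% of held windows with a ratio over 0.6 and in 2.91% of those in no list. AP-1 letters (TGANTCA) were present in 6.99% of all windows and in 47 of 522 low-CpG windows in held regions and 10.3% of those in no list, and C/EBP letters (TTGCNNAA) in 10.2%, 68 of 522 and 13.7%. The letters GAAANNGAA, of the kind bound by IRF factors, were present in 8.15%, 9.96% and 10.3%, and NF-kB letters (GGANTTTCC) in 1.28%, 2.68% and 1.44%. GAAANNGAA does not require the GGAA core of a PU.1 site, so it is no measure of joint IRF and PU.1 sites. A window with the PU.1 motif and a window with the CRE motif are shown, with the motif in capitals: Ctsc, the cathepsin C gene, holds the PU.1 motif on its other strand 151 bases before the start, and Rpl13 holds the CRE motif 24 bases before it.
Ctsc, chr7:88277835-88278084, plus strand: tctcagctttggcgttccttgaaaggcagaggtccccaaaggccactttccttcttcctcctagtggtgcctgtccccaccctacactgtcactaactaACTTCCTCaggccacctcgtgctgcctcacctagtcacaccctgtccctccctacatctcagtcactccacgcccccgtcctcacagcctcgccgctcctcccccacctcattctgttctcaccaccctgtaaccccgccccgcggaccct
Rpl13, chr8:123102100-123102349, plus strand: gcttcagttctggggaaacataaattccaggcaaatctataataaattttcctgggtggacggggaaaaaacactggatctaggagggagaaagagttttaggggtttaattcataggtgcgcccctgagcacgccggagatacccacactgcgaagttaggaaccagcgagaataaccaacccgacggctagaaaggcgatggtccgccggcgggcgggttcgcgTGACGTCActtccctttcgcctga
A match says only that these letters are present, and no binding was measured.

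**Figure D5:**
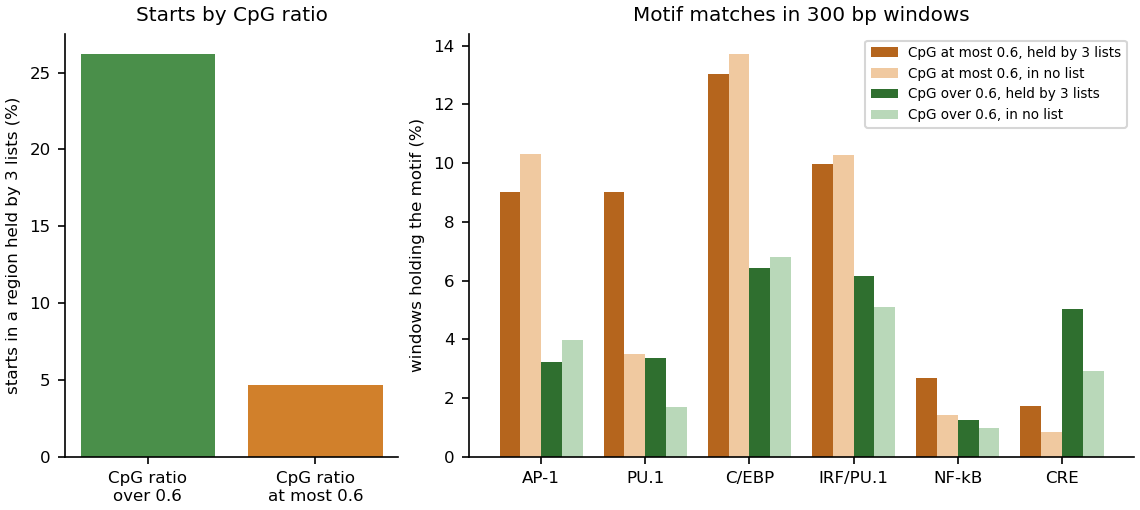
Left, share in percent of RefSeq starts that lie in a region held by all 3 lists, for starts with a CpG ratio over 0.6 and at most 0.6. Right, share in percent of 300 bp windows that hold each motif, split by CpG ratio and by whether the start lies in a held region or in no list. Bars labelled IRF/PU.1 are for the letters GAAANNGAA, which do not require a PU.1 core. PU.1 letters are more frequent in low-CpG windows of held regions (47 of 522) than in those of no list (349 of 10017), and the other shares differ less in percentage points.

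Use of gene ends leaves out starts within a gene model. Of 16990 genes without a gene-end region, 218 had a listed start inside a region held by all lists, among them Nfatc2, Creb5 and Hif1a of the osteoclast transcription factors and Itgav and Cd47 of the effectors. Counting them would give 5115 genes.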

How the data were processed

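H3K27ac was measured in 3 untreated libraries. The submitters' processing notes name FastQC, Bowtie2 and MACS2 and the builds mm10 and GRCm38, while versions and settings are not given in the sources used here. Each sample has 1 deposited list. The authors' score restates the q value, the deposited fold is a linear ratio to background, and the deposited p-value and q-value of a peak are -log10 values. These values served to describe each list, to rank its peaks or to filter them.

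Regions, placement and gene counts were computed in Python 3.11.15 with numpy 2.4.6, pandas 2.3.3 and scipy 1.17.1, and the code was tested on simulated intervals. Protein-coding genes were the 21887 of RefSeq GRCm38.p6 on chromosomes 1 to 19, X and Y. Nearest genes lay within 100 kb. Named genes were those nearest to the 12 strongest and 12 broadest regions and the 8 longest distal clusters, members of the macrophage and osteoclast lists, and from other lists the widest and those without a region. Some genes chosen this way are not reported here. Of 365 list entries, 276 matched the promoter table. No genome was given, so promoter windows stood in for region sequences, a change made after the files were seen. Regions, lists and rules were chosen with earlier results of these data known. Alternatives varied the region build, the overlap, the q threshold, the list length, the lists included, the gene-end distance and the gene set.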

Additional observations from a re-analysis of the deposited data

How the results depend on the processing

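No paired analysis was possible because only 1 group was described. The number of regions held by all lists was 4651 when a list had to cover 50% of a region, 1438 with every list at one covered length and 3 at a -log10 q of at least 5, and 8398 to 11875 with 1 list left out (11875 without replicate 2). Their median width was 1745 bp for merged peaks, 465 bp for stretches covered by every list, 706 bp at the strict q and 477 to 653 bp with 1 list left out, where every list must cover the stretch. The gene-end share was 66.7% at the strict q, 68.6% for ends within 5 kb and 49.4% to 55.1% with 1 list left out. Genes with a gene-end region numbered 971 at one covered length, 2 at the strict q and 4952 to 6415 with 1 list left out. The difference in median width between gene-end and other peaks was 27 to 72.5 bp, and in fold -0.0139 to -0.0049, with 1 list left out, and neither changed sign under any setting tried. Of 55 such comparisons, 40 were counted as unchanged. Counts had to stay within 1.5 times, and the width and gene-end share of regions within the spread between lists. The width and fold differences between gene-end and other peaks were judged by sign only. Counting listed starts as gene ends (5115 genes) and repeating the counts of list members under every setting were added after seeing the data. The cause of these shifts was not tested beyond the fewer peaks or stricter overlap that each setting sets by construction, and unknown depth limits any statement about absent peaks.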

Other observations

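Sex chromosomes carried few regions. On the autosomes the share of protein-coding genes with a gene-end region held by all lists ran from 17.2% on chromosome 14 to 30.0% on chromosome 11. On the X chromosome it was 24 of 966 genes, or 2.48%, and on the Y chromosome 0 of 256. Replicates 1, 2 and 3 had 277, 46 and 176 peaks on the X chromosome, and 30 regions there were held by all lists, among them those at Rpl10 (2180 bp) and Tlr7 (3568 bp).

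Ranked by -log10 p, 4 of the 12 highest regions lay on chromosome 8, at Eif4ebp1, Tti2 and Mak16 and inside Ubxn8. Their fold enrichment was ordinary: at Eif4ebp1 it was 2.54, 2.10 and 2.73 in replicates 1, 2 and 3, with a -log10 p of 9.99, 8.16 and 20.2. Mak16 had a fold of 2.81, 2.00 and 2.04 with a -log10 p of 8.11, 6.31 and 8.43. These regions were named after their values were seen, and why a common fold went with a high -log10 p there was not tested.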
